A study of Mus musculus with 38 samples.

Results

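Open chromatin that is present in every library of a study can be followed across age, diet and genotype in the same regions. In Tcf21 lineage cells sorted from mouse visceral adipose tissue, 29671 of 123130 regions of open chromatin held a peak in all 9 ATAC-seq libraries and spanned less than 5000 bp. The regions were made by merging the peaks of the 9 lists on chromosomes 1 to 19, X and Y wherever peaks shared at least 1 bp. A further 6076 regions had a peak in all 9 libraries but were 5000 bp or wider, and 87383 regions had a peak in 1 to 8 libraries. The 29671 narrower regions are called the members here. They were chosen by the authors' peak calls and by the measured width, so their number, width and fold enrichment are given as a description, and tests were made only on RNA, which the choice did not use.

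ATAC-seq, in which the Tn5 transposase inserts adapters into accessible DNA, was made from 5000 sorted cells per library. The groups were Tcf21 knockout (KO) at 3 weeks of age (KO 3W, 2 libraries), wild type (WT) at 3 weeks (WT 3W, 3 libraries), and WT after 1 week or 12 weeks of high-fat diet begun at 6 weeks of age (WT 1W HFD and WT 12W HFD, 2 libraries each). The 3-week mice ate a regular diet, so diet and age differ together between the 3-week and the high-fat-diet groups. RNA-seq came from the same kind of cells, with 5 KO 3W, 7 WT 3W, 4 WT 1W HFD and 5 WT 12W HFD libraries compared here. A further 8 RNA libraries, 2 each of KO after 1 week and after 12 weeks of high-fat diet, WT at postnatal day 12 (P12) and WT at 6 months (6M) on a regular diet, entered the low-value filter, the estimate of the spread and the ranges given over all 29 libraries. All samples list tamoxifen, which activates the Cre recombinase MerCreMer, at an adult and a neonatal dose. The labels give neither the promoter that drives this Cre nor the Tcf21 allele, and they do not say whether libraries are separate animals, so the spread and the p-values are those between libraries. Titles of the 3-week libraries name pairs of KO and WT (2 pairs in ATAC-seq and 5 in RNA-seq) without saying what a pair shares, and the comparisons are unpaired.

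Most cells keep a common set of accessible sites. Promoters of housekeeping genes are a large part of it: they are often rich in CpG, are kept free of nucleosomes by factors such as those of the Sp/Klf, ETS, NRF1, NF-Y and YY1 families, and remain accessible whether or not the cell changes state. Insulator sites bound by CTCF are another part. Enhancers, by contrast, tend to open and close with cell type, and genes that define a cell type are often covered by wide stretches of open chromatin. Tcf21 itself is a basic helix-loop-helix transcription factor of mesenchymal progenitors, and the sorted cells are progenitors that can form fat cells.

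The lists held 55990 to 93314 peaks, and 35.4 to 55.6% of a library's peaks fell in members. Neither the peak lists nor the gene tables hold read counts, so depth is unknown throughout. Names of peaks begin with the letter A in 6 lists. They begin with B in the lists of WT 3W replicates 2 and 3 and of KO 3W replicate 2, and no source explains the letter. Groups follow the sample titles; the genotype field differed from the title in 22 of 38 samples, including both ATAC-seq libraries titled KO. Tcf21 RNA was 20.01 to 60.9 TPM (an abundance scaled to a fixed total per library) in the libraries titled KO 3W (median 25.1, n = 5) and 37.6 to 109 in WT 3W (median 47.6, n = 7), so the ranges overlapped and the target was not absent in the libraries titled KO. The stromal progenitor markers (16 genes, Tcf21, Pdgfra and Dcn among them) were all detected in each of the 4 RNA groups. Erythroid genes, mainly globins, summed to 1118 to 9493 TPM in WT 3W and 3625 to 41706 in WT 12W HFD, and since TPM values share a fixed total, their part in the changes of other genes was not tested.

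The sequences at member starts were read first, because promoter composition was not used by the rule. Promoters of 5 genes are shown, from the members with the strongest peaks and from gene lists described below. Each is 300 bases, 250 before to 50 after the RefSeq start, on the strand of the gene (RefSeq, GRCm38.p6). Capitals mark the letters of 6 motifs searched on both strands, namely the GC box of the Sp and Klf factors (GGGCGG), the CCAAT box of NF-Y (CCAAT), the ETS core (CCGGAAG), the NRF1 core (GCATGCG), the YY1 core (GATGGCG) and the CRE core (TGACGT). Immt (chr6:71831070-71831369, plus strand) encodes a protein that shapes the inner mitochondrial membrane and lies in a member that, together with that of Stard7, has the highest median rank of fold among those with a listed start. Msh3 (chr13:92354954-92355253, minus strand) encodes a mismatch repair protein, Mrpl17 (chr7:105811038-105811337, minus strand) a protein of the mitochondrial ribosome, and Smc3 (chr19:53600146-53600445, plus strand) a subunit of the cohesin ring. Pparg (chr6:115360894-115361193, plus strand), the central transcription factor of fat cell formation, has 3 listed starts in its member, and the one nearest the peak summits is printed.
Immt: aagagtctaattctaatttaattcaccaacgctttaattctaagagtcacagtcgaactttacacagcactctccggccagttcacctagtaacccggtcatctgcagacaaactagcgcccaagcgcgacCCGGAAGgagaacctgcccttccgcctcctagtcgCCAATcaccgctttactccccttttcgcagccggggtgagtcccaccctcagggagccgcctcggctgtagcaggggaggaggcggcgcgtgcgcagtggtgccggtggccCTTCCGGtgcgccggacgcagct
Msh3: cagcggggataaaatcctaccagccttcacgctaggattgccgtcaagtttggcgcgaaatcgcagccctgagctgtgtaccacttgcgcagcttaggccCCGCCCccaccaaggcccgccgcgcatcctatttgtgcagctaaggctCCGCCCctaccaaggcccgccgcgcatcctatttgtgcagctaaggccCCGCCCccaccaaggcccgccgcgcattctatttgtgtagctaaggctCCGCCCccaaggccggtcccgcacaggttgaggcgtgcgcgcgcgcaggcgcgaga
Mrpl17: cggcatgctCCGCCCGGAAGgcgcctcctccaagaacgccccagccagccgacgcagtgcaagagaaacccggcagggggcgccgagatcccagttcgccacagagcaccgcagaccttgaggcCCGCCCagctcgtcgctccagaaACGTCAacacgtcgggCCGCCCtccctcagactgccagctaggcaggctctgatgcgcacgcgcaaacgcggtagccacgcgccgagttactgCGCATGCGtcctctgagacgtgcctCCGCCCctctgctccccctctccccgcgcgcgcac
Smc3: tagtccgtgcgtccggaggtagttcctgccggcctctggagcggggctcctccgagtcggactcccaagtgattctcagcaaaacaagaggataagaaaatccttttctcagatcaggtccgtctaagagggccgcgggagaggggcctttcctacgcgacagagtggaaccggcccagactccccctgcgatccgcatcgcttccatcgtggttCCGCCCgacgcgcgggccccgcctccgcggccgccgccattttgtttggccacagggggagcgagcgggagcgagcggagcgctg
Pparg: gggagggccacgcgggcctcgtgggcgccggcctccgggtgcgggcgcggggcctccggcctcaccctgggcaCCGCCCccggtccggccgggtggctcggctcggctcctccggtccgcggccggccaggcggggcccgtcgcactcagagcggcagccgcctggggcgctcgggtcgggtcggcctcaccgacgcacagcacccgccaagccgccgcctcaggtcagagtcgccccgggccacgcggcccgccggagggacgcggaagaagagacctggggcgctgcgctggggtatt

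Within these 5 windows Immt held 2 ETS cores and 1 CCAAT box while Msh3 held 4 GC boxes. Mrpl17 held 4 GC boxes, 1 of which shares letters with its ETS core, as well as 2 NRF1 cores, 1 on each strand of the same letters, and 1 CRE core. Smc3 and Pparg each held 1 GC box. The GC content of the windows was 59.3% for Immt, 65% for Msh3, 69.7% for Mrpl17, 65% for Smc3 and 80.3% for Pparg. None of the 5 held a TATA box. A match describes these letters only.

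Member promoters as a class were rich in CpG and GC boxes. The 11251 promoter windows that start in a member had a median GC content of 60.3%, against 46.3% for 14580 starts outside every region and 52.7% for all 32851 windows. The ratio of observed to expected CpG was over 0.6 in 68.5% of the member windows, 4.20% of those outside regions and 35.8% of all. A GC box was present in 61.0% of member windows and 35.7% of all windows, an ETS core in 17.9% and 8.86%, an NRF1 core in 6.51% and 3.58%, a YY1 core in 6.48% and 3.49%, and a CRE core in 11.1% and 7.51%. The TATA box (TATAAA) stood in 6.43% of member windows and 13.6% of all, and the AP-1 site (TGANTCA) in 4.78% and 7.81%. The CCAAT box was in 37.2% of member windows and 37.4% of all.

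Promoters in the 6076 wide regions had a median GC content of 62.7% and passed the CpG ratio in 65.7%, close to the members. They held a GC box in 64.2% and an ETS core in 10.5%. Within the members, composition went with the strength of the peak. In the strongest 25% of member starts by rank of fold enrichment 22.3% held an ETS core and 88.7% were past the CpG ratio of 0.6. In the weakest 25% these shares were 7.67% and 39.4%. GC content moves with most of these motifs, and its part in the motif shares was not tested.

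Gene starts were concentrated in regions open in every library. A listed gene start lay in 8334 of the 28692 members outside chromosome 18, for which no start was used (29.05%, 95% Wilson interval 28.5 to 29.6%). The share was 47.9% in wide regions, 6.31% in regions with a peak in 8 libraries and 1.02% in regions with a peak in 1 library. Over all regions it was 11.3%. A start was listed for 16921 of the 25746 genes with TPM values, so these shares are lower bounds, and counting either end of the deposited gene bodies instead gave 31.3% of members. Regions seen in more libraries were also wider, with a median width of 539 bp for 1 library, 1821 bp for 8 libraries and 2586 bp for the members, and a wider region has more room for a start.

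**Figure D1:**
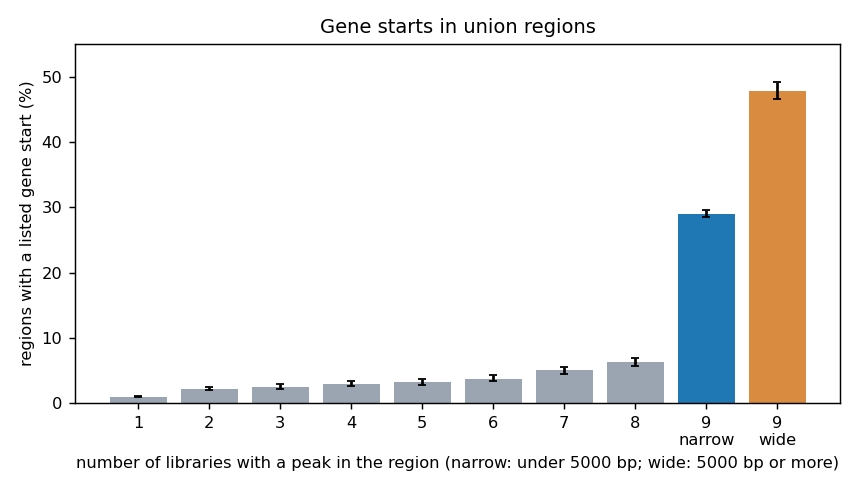
Share of union regions that contain a listed gene start (y axis, percent) by the number of the 9 libraries with a peak (x axis), chromosome 18 left out; error bars are 95% Wilson intervals, which cover counting error only. The share stays at or below 6.31% up to 8 libraries and is 29.05% in the members (blue) and 47.9% in wide regions (orange).

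Peak summits sat close to gene starts, more often inside the gene than before it. In members with 1 listed start the median over libraries of the summit lay 87 bp downstream of the start (median of 6089 members), 75.6% were within 250 bp and 88.2% within 500 bp. Of these summits 67.6% lay downstream of the start. The summits of the 9 libraries spread over a median of 284 bp within a member, and 79.0% of members had exactly 1 peak in each library. Many members served 2 genes at once: 6850 held the start of 1 gene, 1467 of 2 and 17 of 3. Of the 1467 with 2 genes, 1413 (96.3%) had the genes on opposite strands. Of all members 66.2% overlapped a gene body and 31.5% overlapped neither a gene body nor a listed start. The members covered 81.0 Mb, with widths of 1601 bp at the 10th percentile and 4143 bp at the 90th.

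The stronger the peak, the more often it was a promoter. Ordered by the median over libraries of the rank of their fold enrichment, the weakest 10% of members held a listed start in 6.52% and the strongest 10% in 83.0%. Members that overlapped no gene fell from 38.3% of the weakest 10% to 3.58% of the strongest. The rank uses the same peaks that chose the members, so this gradient is a description. The fold enrichment is the value the authors' peak caller gave each peak, and where a library has several peaks in a member the highest was taken. Folds of single members are printed as deposited.

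**Figure D2:**
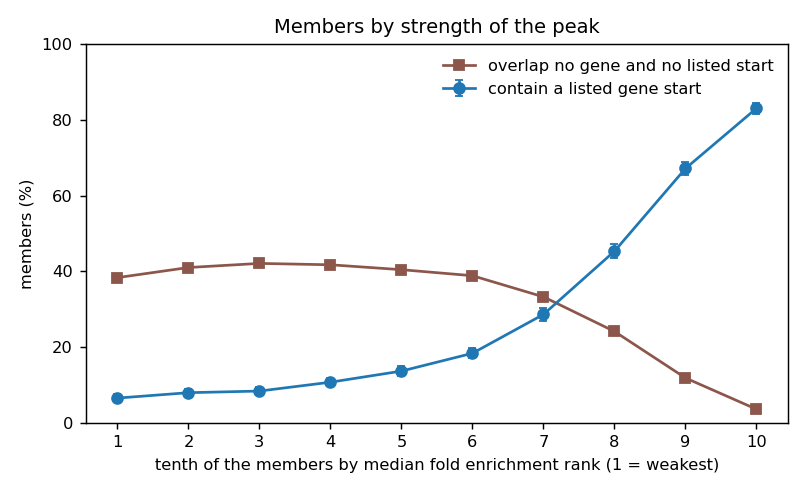
Members split into 10 equal classes by the median rank of fold enrichment (x axis, 1 weakest) and the share of each class that contains a listed gene start (blue circles, with 95% Wilson intervals) or overlaps no gene and no start (brown squares; y axis, percent). The start share rises from 6.52% to 83.0% while the share without a gene falls to 3.58%.

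Chromosomes differed little. Members made up 21.1% (chromosome 14) to 25.7% (chromosome 7) of the regions of chromosomes 1 to 19 and X, and 9 of 82 regions (10.98%) on chromosome Y. The strongest members on Y held the start of Eif2s3y, a translation initiation factor subunit (fold 31.1 and 18.8 in KO 3W, 35.6, 17.8 and 22.2 in WT 3W, 24.9 and 18.97 in WT 1W HFD and 30.8 and 13.1 in WT 12W HFD), and that of Uty, a histone demethylase gene (fold 15.4 to 31.8 over the 9 libraries).

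Most genes of basic cell machinery with a listed start had it in a member, to a degree that differed between lists. All 28 mitochondrial ribosomal protein genes with a listed start lay in members, as did 21 of 22 DNA repair genes, 23 of 25 proteasome subunits, 21 of 25 nuclear subunits of oxidative phosphorylation and 22 of 27 genes of RNA polymerase II and the general transcription factors. A gene with several starts was counted under members if any lay in one, so some may also start in a wide region. Over all protein-coding genes with a listed start the number was 7906 of 17492 (45.2%), and over lncRNA genes 17.9%. The rest of these lists lay in wide regions: Ercc1 was the exception among DNA repair genes, and Psma7 and Psmb3 among the proteasome genes. The 18 cytosolic ribosomal protein genes in members stood beside 12 in wide regions, and splicing factors divided into 17 and 14. Translation factors divided into 15 and 7, ubiquitin E2 enzymes into 15 and 7, and chaperones with heat shock proteins into 12 and 8. Among splicing genes the Sm proteins listed (Snrpd2, Snrpd3, Snrpe, Snrpf and Snrpg) were in members, whereas the listed SR proteins (Srsf1, Srsf2, Srsf3, Srsf7 and Srsf10) and hnRNP genes were in wide regions. Of the cohesin list 6 of 8 were in members, while Ctcf and Smc1a were in wide regions.

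The strongest machinery members had high peaks in every library. The examples here and in the next paragraph were chosen for the highest median rank of fold in their lists. The list medians of that rank, in percent among members, were lower. They were 80.3 for mitochondrial ribosomal proteins, 87.7 for proteasome subunits and 93.7 for DNA repair. At Msh3 (chr13:92353290-92356532) the fold was 132 and 107 in KO 3W, 203, 101 and 117 in WT 3W, 105 and 113 in WT 1W HFD and 136 and 77.8 in WT 12W HFD. WT 3W replicate 1 was highest there and WT 12W HFD replicate 2 lowest, and the 4 groups overlapped in the fold as deposited. With each library's median set to 0, a scaling described below, KO 3W and both HFD groups were below WT 3W without overlap at Msh3. At Psma3, a subunit of the proteasome core (chr12:70973792-70977011), the fold was 123 and 83.2 in KO 3W, 155, 68.9 and 104 in WT 3W, 86.4 and 93.99 in WT 1W HFD and 108 and 69.3 in WT 12W HFD. At Mrpl17 (chr7:105808935-105812750) it was 107 and 76.9 in KO 3W, 154, 87.3 and 101 in WT 3W, 58.7 and 70.6 in WT 1W HFD and 86.2 and 59.5 in WT 12W HFD, so that the HFD libraries did not exceed 86.2 and 4 of the 5 libraries of 3-week mice were above them. Both HFD groups were below WT 3W there under all 3 scalings described below. WT 3W replicate 1 was the highest of the 9 libraries at all 3 promoters, and its list was stretched at the top: its 90th percentile of fold over the members was 87.3, against 39.8 to 65.9 in the other lists.

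Other machinery members among the strongest of their lists had folds of the same order. Over the 9 libraries the fold was 62.8 to 161 at the cohesin gene Smc3, 79.3 to 154 at Stag1, whose product joins the cohesin ring, and 62.5 to 152 at Polr2b, which encodes a core subunit of RNA polymerase II. It was 77.3 to 153 at Ogg1, which removes oxidised guanine, 54.1 to 119.6 at the complex I subunit Ndufv2 and 41.9 to 117 at Rpl11 of the cytosolic ribosome. Brca1, a gene of homologous recombination, shares its member with Nbr1, a gene of selective autophagy (73.3 to 161), and Mrps7 shares one with the sorting adaptor gene Gga3 (52.2 to 153).

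Of the listed genes that define the sorted cells, or that respond within minutes to stimulation, most with a listed start lay in wide regions instead. Over all protein-coding genes with a listed start 15.5% did. Of 22 immediate early genes with a listed start 20 were in wide regions, Fos, Jun and Egr2 among them, and the 2 in members were Nr4a2, an orphan nuclear receptor (fold 49.9 and 30.8 in KO 3W, 79.9, 23.1 and 36.8 in WT 3W, 19.6 and 42.03 in WT 1W HFD and 44.6 and 18.97 in WT 12W HFD), and Dusp2, a phosphatase of MAP kinases (fold 13.4 to 28.9). Only 8 of the 16 stromal identity genes had a listed start, and 7 of these were in wide regions, Tcf21 and Pdgfra among them. Of the 8 only Gsn, which encodes the actin-severing protein gelsolin, was in a member (chr2:35255675-35260358). Its fold was 47.7 and 28.4 in KO 3W, 38.96, 20.2 and 35.7 in WT 3W, 40.3 and 28.6 in WT 1W HFD and 40.3 and 27.6 in WT 12W HFD. Of 16 adipogenic transcription factors with a listed start 11 were in wide regions, including Cebpa, Cebpb and Ebf1. A further 2 (Ppargc1a and Nfia) were in no region at their listed start.

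The 3 adipogenic factors in members were Stat5b, Zfp467 and Pparg. At the Pparg member (chr6:115360796-115363315) the fold was 28.9 and 17.8 in KO 3W, 18.1, 13.7 and 17.3 in WT 3W, 32.1 and 32.1 in WT 1W HFD and 34.1 and 29.05 in WT 12W HFD. All 4 HFD values there were above all 5 values of the 3-week libraries, though KO 3W replicate 1 came within 1 unit of the lowest of them. KO 3W replicate 2 lay inside the WT 3W range. Zfp467, a zinc finger gene that promotes adipogenesis, had 39.8 and 26.9 in KO 3W, 40.6, 19.6 and 27.6 in WT 3W, 30.04 and 25.4 in WT 1W HFD and 23.6 and 13.1 in WT 12W HFD. Both 12-week values were below both 1-week values, also under all 3 scalings described below. WT 3W overlapped each of the other groups in the fold as deposited. With each library's median set to 0, both HFD groups were below WT 3W without overlap. Stat5b, a transducer of growth hormone signals, ranged from 17.8 to 65.5. Progenitor lists divided between the classes: the Dpp4-type interstitial list had 6 of 12 in members (Dpp4, Sema3c, Wnt2, Efhd1, Opcml and Limch1), the committed preadipocyte list 3 of 10 (Col15a1, Clec11a and Fmo2), and lipid storage 2 of 14 (Lipe, hormone-sensitive lipase, and Agpat2, an enzyme of triglyceride synthesis).

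**Figure D3:**
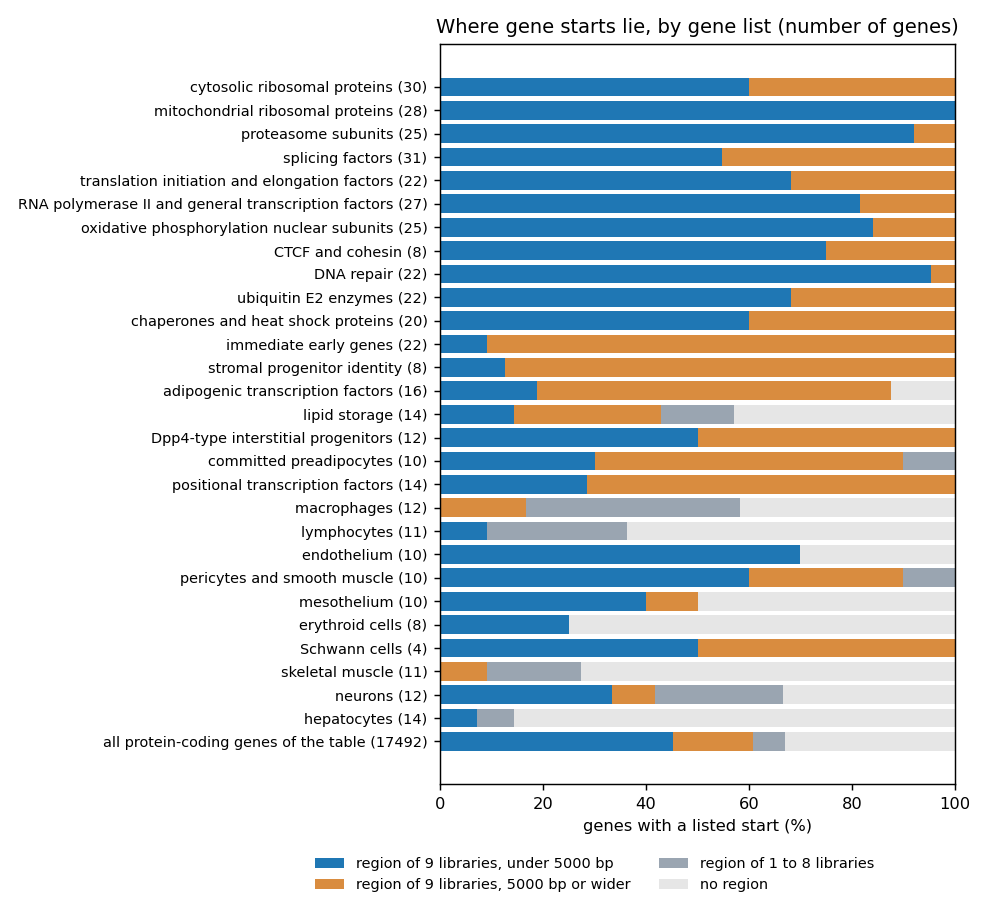
For each gene list (number of genes with a listed start in brackets), the share of genes (x axis, percent) whose start lies in a member (blue), a wide region of 9 libraries (orange), a region of 1 to 8 libraries (grey) or no region (light grey). A gene with several starts is counted under the first of these kinds that holds one. Blue fills all or nearly all of the bars of mitochondrial ribosomal proteins (28 of 28) and DNA repair (21 of 22), orange most of those of immediate early genes (20 of 22) and stromal identity (7 of 8).

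Starts of marker genes of other cell types were mixed. No start of 12 macrophage genes was in a member, 2 (Cd68 and Fcer1g) were in wide regions and 10 were in regions of fewer libraries or in none. Skeletal muscle had 0 of 11, hepatocytes 1 of 14 (Apoa2) and lymphocytes 1 of 11 (Ikzf1, the Ikaros factor, with a weak peak of 4.38 to 12.5). Endothelium had 7 of 10 in members, and pericytes and smooth muscle 6 of 10. At Kdr, a receptor for VEGF, the fold was 38.96 and 29.3 in KO 3W, 59.1, 27.9 and 31.9 in WT 3W, 26.3 and 16.9 in WT 1W HFD and 21.96 and 10.5 in WT 12W HFD. An open start did not go with RNA in every case. The 4 neuronal genes in members had a median of 0 to 0.53 TPM per library. Slc17a7, a vesicular glutamate transporter of neurons and 1 of the 4, had a fold of 26.9 to 90.004, but its RNA alone is not given here.

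The strongest members of all were divided between promoters and sites away from listed starts. Of the 10 members with the highest median rank, 5 held no listed start and 5 held the starts of Immt, Stard7, 2810006K23Rik with Mphosph9, Ddx54 with Rita1, and Cdca3. The Immt member (chr6:71830256-71832811) had a fold of 159 and 122 in KO 3W, 231, 110.4 and 133 in WT 3W, 113 and 128 in WT 1W HFD and 159.6 and 112 in WT 12W HFD. Stard7, whose product carries phosphatidylcholine to mitochondria, had 159.7 and 131 in KO 3W, 216, 112 and 152 in WT 3W, 119.9 and 130.2 in WT 1W HFD and 129.8 and 111 in WT 12W HFD. In the fold as deposited the 4 groups overlapped at Immt. At Stard7 both KO 3W libraries were above all 4 HFD libraries, the lower of them by less than 1 unit, and WT 3W overlapped all groups. With each library's median set to 0, a scaling described below, KO 3W and both HFD groups were below WT 3W without overlap at both promoters. The range for Cdca3, a cell cycle gene, was 105 to 233.

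Some of the 5 members without a listed start varied far more between 3-week and HFD libraries than the 5 with one. A 908-bp member inside the zinc finger gene Zc3h7a (chr16:11143728-11144635) had a fold of 321 and 275 in KO 3W, 641, 244 and 266 in WT 3W, 105 and 69.2 in WT 1W HFD and 85.6 and 64.6 in WT 12W HFD, so that every 3-week library was above every HFD library. The same order held at a 520-bp member outside genes (chr3:5860315-5860834; 247 and 229 in KO 3W, 488, 208 and 250.1 in WT 3W, 82.9 and 72.4 in WT 1W HFD and 81.3 and 55.98 in WT 12W HFD) and at one in Cmss1 and Filip1l (chr16:57389397-57394052; 273 and 184 in KO 3W, 488, 159.7 and 187 in WT 3W, 80.6 and 74.4 in WT 1W HFD and 70.5 and 46.6 in WT 12W HFD). A member at the end of the predicted gene Gm10800 (chr2:98666239-98667333) had 152 and 246 in KO 3W, 171, 201 and 181 in WT 3W, 184 and 243 in WT 1W HFD and 379 and 338 in WT 12W HFD. Only the 12-week libraries were above the 3-week libraries there, and the 1-week values lay inside the 3-week range. Another outside genes (chr6:47752452-47754515) showed neither order (173 and 254 in KO 3W, 382, 151 and 244 in WT 3W, 244 and 224 in WT 1W HFD and 419 and 132 in WT 12W HFD). No genome of the files' build was used here, so whether these 5 stretches hold repeats was not examined.

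At the other end, the 5 weakest members lay in Zc3h11a with Gm38394, Ilrun, Elmsan1 and Eif4g3 and outside genes at chr3:96474259-96475949, with folds of 2.79 to 7.08 over the 9 libraries. Between 0.64% (WT 1W HFD replicate 1) and 13.3% (WT 3W replicate 2) of members had a peak with a −log10 q under 5 in a given library. Just inside the width limit, at 4999 bp, were the members of Pola2, a subunit of DNA polymerase alpha (fold 13.9 to 36.3), and Calhm2 (17.2 to 32.4). Just outside, at 5000 bp, were Necab2 (2.58 to 15.1) and Rdx, which encodes radixin (65.4 to 153).

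Across libraries the members kept their order. Spearman's rho of fold over the 29671 members was 0.88 to 0.94 between libraries of one group, 0.87 to 0.91 among the 5 libraries of 3-week mice, 0.86 to 0.94 among the 4 HFD libraries and 0.72 to 0.88 between a 3-week and an HFD library. These values describe the members, which share the library's depth and peak calling, and are no test. After the median of each library was set to 0 on the log2 scale, the SD of a member over the 9 libraries was 0.37 at the median (0.33 for members with a start, 0.38 without). Median fold over members ran from 10.1 (WT 3W replicate 2) to 18.7 (WT 12W HFD replicate 1). Members with a start had 26.5 to 58.1, those without one 8.31 to 14.8, wide regions 23.1 to 46.0, and regions of 1 to 8 libraries 4.15 to 5.04.

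Counts of members that differ between groups depended on how libraries were put on one scale. In KO 3W against WT 3W, with each library's median set to 0, the libraries of the groups did not overlap at 2044 members that were higher in KO (6.89%, against 6.13% of all regions with a peak in every library of both groups) and at 5659 that were lower (19.1% against 21.4%). With the fold as deposited these counts were 2812 and 253, and with ranks within each library 2560 and 3007, so that the share of higher members among those that differed went from 26.5% to 91.7% and 46.0%. Under all 3 scalings 965 members were higher and 169 lower. With 2 libraries of KO 3W and 3 of WT 3W, non-overlap is frequent by order alone. That part of the counts was not estimated, so they are no number of members that differ by genotype. The difference between the KO and WT means had an SD of 0.32 over members, and the differences between single libraries of one group had SDs of 0.38 to 0.51. Within the letter A libraries the higher and lower members had median log2 differences of 0.54 and -0.47, and within letter B 0.41 and -0.32. These directions are fixed by the choice of members whose libraries do not overlap, so the part of the letter was not tested.

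The HFD groups stood farther from WT 3W. At 1 week of diet 4061 members were higher than WT 3W (13.7%, against 13% of all comparable regions) and 9978 lower (33.6% against 35.9%), and at 12 weeks 4338 were higher (14.6% against 14.2%) and 10533 lower (35.5% against 37.7%). Between 12 weeks and 1 week 5344 were higher (18.01% against 21.9%) and 7027 lower (23.7% against 21.5%). With 2 libraries in each of these groups, non-overlap is frequent by order alone, and that part of the counts was not estimated. The members' shares were close to those of all comparable regions. Under all 3 scalings 3467 members were higher and 1514 lower at 1 week, 3526 and 1722 at 12 weeks, and 3038 and 4243 for 12 weeks against 1 week. With the fold as deposited, the share of higher members was 79.3% at 1 week and 73.8% at 12 weeks, in place of 28.9% and 29.2% with the medians at 0. By ranks it was 48.9% and 45.7%. Both HFD groups and KO 3W were set against the same 3 WT 3W libraries, and all HFD lists carry letter A. Against the letter A library of WT 3W alone the higher and lower members had medians of 0.72 and -0.65 at 1 week and 0.93 and -0.72 at 12 weeks. Against the letter B libraries these were 0.57 and -0.56, and 0.74 and -0.64. Here too the choice fixes the directions, and the part of the letter was not tested.

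Members that became stronger under every scaling were mostly away from promoters. Of those higher at 12 weeks than at 3 weeks, 6.22% held a listed start, and of those lower 26.99%, against 29.05% of all members. At 1 week of diet the shares were 9.997% and 34.6%, in KO against WT 7.21% and 13.0%, and in 12 weeks against 1 week 8.75% and 23.5%. With the medians at 0 alone, the lower members held a start in 46.0% at 12 weeks and 54.0% in KO, so that share too moved with the scaling.

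Most members with the largest differences lay away from listed starts, the exceptions among those named being 4931408D14Rik, Gm32727, Gm34847 and Slc38a4. The fold is that of a library's highest peak anywhere in the member. Where the summits lie far apart, the compared peaks may therefore be at different sites. Pappa2, which encodes a protease of IGF-binding proteins, held an intragenic member (chr1:158852287-158854693) with a fold of 11.99 and 6.73 in KO 3W, 4.03, 3.56 and 4.87 in WT 3W, 6.05 and 5.84 in WT 1W HFD and 45.6 and 36.8 in WT 12W HFD. Both 12-week libraries were thus above all the others. A member in the tripartite motif gene Trim29 (chr9:43324492-43328352) had 8.17 and 5.77 in KO 3W, 5.04, 4.15 and 3.79 in WT 3W, 24.5 and 21.6 in WT 1W HFD and 23.6 and 27.2 in WT 12W HFD. The summits of the 9 libraries spread over 2121 bp there, beside a median of 284 bp over members. Both HFD groups were above all the 3-week libraries. The same order held for a member in Lclat1, an acyltransferase gene (chr17:73193621-73197074), with 9.81 and 6.73 in KO 3W, 5.04, 3.56 and 7.04 in WT 3W, 21.7 and 15.8 in WT 1W HFD and 35.1 and 35.6 in WT 12W HFD.

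Members in Sipa1l3 and Mbp and at the start of 4931408D14Rik were also higher on the diet than in WT 3W. In Sipa1l3 (chr7:29457004-29459787), a regulator of Rap GTPases, the fold was 22.1 and 12.02 in KO 3W, 8.40, 3.56 and 7.04 in WT 3W, 30.5 and 27.7 in WT 1W HFD and 47.2 and 35.6 in WT 12W HFD. In Mbp, the myelin basic protein gene, it was 17.4 and 6.73 in KO 3W, 4.03, 5.34 and 5.41 in WT 3W, 16.8 and 21.6 in WT 1W HFD and 41.6 and 29.3 in WT 12W HFD. KO 3W replicate 1 reached the 1-week values at Mbp. At 4931408D14Rik (chr19:37263593-37266518) it was 34.9 and 9.62 in KO 3W, 15.1, 8.90 and 8.66 in WT 3W, 54.7 and 48.7 in WT 1W HFD and 40.3 and 17.6 in WT 12W HFD, with both 1-week libraries above the 7 others.

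Other members were weaker on the diet. A member in the kinase gene Hunk (chr16:90420558-90425033) had 22.1 and 17.8 in KO 3W, 23.8, 9.50 and 15.7 in WT 3W, 5.36 and 6.42 in WT 1W HFD and 3.61 and 2.58 in WT 12W HFD. A member outside genes at chr1:38743090-38745052 had 23.7 and 21.6 in KO 3W, 47.7, 26.7 and 34.1 in WT 3W, 10.5 and 6.13 in WT 1W HFD and 7.21 and 3.51 in WT 12W HFD, and one at the start of Gm32727 had 3.28 to 35.6 over the 9 libraries. At these 3 members all 4 HFD libraries were below all 5 libraries of 3-week mice. The summits of the 9 libraries spread over 2887 bp in Hunk, 1885 bp at Gm32727 and 317 bp at the member outside genes. At Slc38a4, an amino acid transporter gene (chr15:97053344-97056329), the fold was 16.3 and 8.17 in KO 3W, 19.1, 10.1 and 10.8 in WT 3W, 12.3 and 12.8 in WT 1W HFD and 3.61 and 2.81 in WT 12W HFD, so that both 12-week libraries were below the 7 others. The summits there spread over 1047 bp.

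The 12-week and 1-week groups were farthest apart at Nsun2, Fam83h and Gm34847 among others. A member in Nsun2, an RNA methyltransferase gene, had 14.2 and 10.6 in KO 3W, 11.8, 5.94 and 7.04 in WT 3W, 22.1 and 16.9 in WT 1W HFD and 5.24 and 3.28 in WT 12W HFD. A member in Fam83h had 4.63 and 4.81 in KO 3W, 6.38, 4.75 and 5.95 in WT 3W, 18.4 and 13.4 in WT 1W HFD and 3.93 and 3.05 in WT 12W HFD. In both the 1-week libraries were above the 7 others. The summits spread over 560 bp in Nsun2 and 1431 bp in Fam83h. The member at the start of Gm34847 went the opposite way, with 12.5 and 5.29 in KO 3W, 9.07, 6.53 and 5.41 in WT 3W, 3.73 and 4.67 in WT 1W HFD and 27.2 and 18.5 in WT 12W HFD.

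In KO against WT at 3 weeks the largest difference upward lay in Osbpl6, an oxysterol-binding protein gene (chr2:76503555-76505260), with 31.3 and 13.5 in KO 3W, 8.40, 5.94 and 4.87 in WT 3W, 23.5 and 14.6 in WT 1W HFD and 25.2 and 19.9 in WT 12W HFD. The KO libraries differed by more than 2-fold between themselves there, and all 4 HFD libraries were above WT 3W too. A member outside genes at chr3:83755004-83756467 had 22.1 and 9.14 in KO 3W, 4.37, 4.75 and 4.87 in WT 3W, 13.5 and 11.4 in WT 1W HFD and 12.1 and 13.4 in WT 12W HFD, and another at chr8:35142689-35145264 had 16.6 and 15.9 in KO 3W, 4.37, 5.34 and 6.49 in WT 3W, 3.26 and 4.38 in WT 1W HFD and 14.8 and 13.1 in WT 12W HFD. At the latter the 1-week libraries were as low as WT 3W. The 3 members named for a lower fold in KO all lay outside genes, and the one at chr14:31461867-31463913 had 5.72 and 2.88 in KO 3W, 20.8, 9.50 and 11.4 in WT 3W, 7.45 and 10.8 in WT 1W HFD and 12.8 and 5.86 in WT 12W HFD. Each member named for a difference stayed without overlap under all 3 scalings, but every group had only 2 or 3 libraries.

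**Figure D4:**
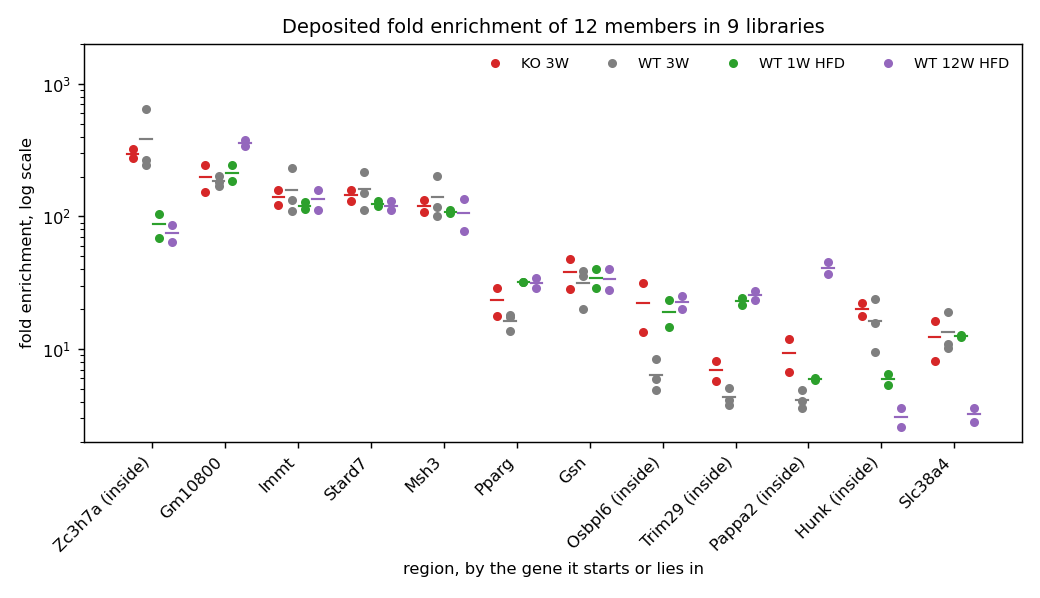
Deposited fold enrichment (y axis, log scale) of 12 members in the 9 ATAC-seq libraries, 1 point per library, with a bar at each group's mean (KO 3W red, WT 3W grey, WT 1W HFD green, WT 12W HFD purple); names followed by "inside" mark members within the gene. The promoter members of Immt and Stard7, chosen for high rank, stay between 110.4 and 231. Members chosen for a difference include Pappa2, with 3.56 to 4.87 in WT 3W and 45.6 and 36.8 in WT 12W HFD. They also include the promoter member of Slc38a4, with 19.1, 10.1 and 10.8 in WT 3W and 3.61 and 2.81 in WT 12W HFD.

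RNA from genes with a start in a member was widespread. Of 7852 such genes in the TPM table, 76.0 to 84.1% per library reached 1 TPM over the 29 libraries, with a median of 7.85 to 12.6 TPM. Genes that start in wide regions had a median of 14.0 to 23.3 TPM and 83.7 to 89.9% at or above 1 TPM. Genes whose listed start lay in neither had a median of 0 and 5.88 to 12.2% at or above 1 TPM. The machinery lists were expressed in nearly all libraries: all 28 mitochondrial ribosomal genes had at least 1 TPM in each of the 29 libraries, with a list median of 48.4 to 77.02 TPM, and the 23 proteasome genes had 133 to 218. The 21 DNA repair genes were lower, at 3.65 to 11.9 TPM, with 12 above 1 TPM in every library. Of the 7852 genes 7291 (92.9%) passed the filter of 1 TPM in at least 2 libraries and were tested with limma on log2(TPM + 1).

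Between KO and WT at 3 weeks no gene with a start in a member passed the adjusted threshold of 0.05 in limma, in either direction, and neither did any of the 15659 genes tested (0%). At an unadjusted p under 0.05 there were 128 higher and 109 lower of 7291, beside 306 and 240 of all genes. The median log2 change was 0.01, the median size 0.17 and the median SE 0.29. These values leave out the pairs named in the titles. With the pairs as a block no gene with a start in a member passed the threshold either. For Pparg the KO 3W libraries had 79.4, 23.4, 29.4, 19.4 and 34.2 TPM and the WT 3W libraries 10.5, 29.3 and 80.5 (lowest, median, highest of 7), a log2 change of 0.20 ± 0.41 SE, adjusted p = 1 in limma. In bulk RNA of sorted cells, fewer cells of a type and less RNA per cell cannot be told apart, here and below.

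After 1 week of high-fat diet 264 of the 7291 genes rose against WT 3W (3.62%, against 4.78% of all genes tested) and 249 fell (3.42% against 3.25%), by limma with Benjamini-Hochberg adjustment at 0.05. The groups rest on 4 and 7 libraries, and without WT 1W HFD replicate 3 the counts were 118 and 126, without replicate 4 134 and 127, and without replicate 1 156 lower. With limma fitted to these 2 groups alone, 156 were higher and 137 lower. Cytosolic ribosomal protein genes had 4 of 18 lower and 0 higher, with a median log2 change of -0.41, and oxidative phosphorylation 3 of 20 lower with -0.31. Mitochondrial ribosomal genes had 1 of 28 lower and 0 higher (Mrps11 with -0.57 ± 0.17 SE, adjusted p = 0.039 in limma), and DNA repair genes 0 of 21 in either direction. The 1-week and 12-week comparisons share the 7 WT 3W libraries. Over all genes tested the median log2 change was 0.02.

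Progenitor and endothelial genes were among those that rose at 1 week. Dpp4, a surface peptidase that marks interstitial progenitors, had 7.32, 9.2 and 54.6 TPM in WT 3W (lowest, median, highest) and 55.9, 71.8, 87.9 and 95.7 in the 1-week libraries, a log2 change of 2.49 ± 0.41 SE, adjusted p = 4.3e-04 in limma. Each 1-week library was above each WT 3W library. Efhd1, a calcium-binding protein gene, went from 4.26, 27.03 and 86.4 to 107, 133, 143 and 159.7 TPM (2.63 ± 0.54 SE, adjusted p = 0.0029, limma), and Limch1 rose by 1.59 ± 0.42 SE, adjusted p = 0.019 in limma. Of the Dpp4-type list 3 of 6 rose and 0 fell at 1 week. The fold at the Dpp4 start (chr2:62410552-62412746) was 11.4 and 7.21 in KO 3W, 11.4, 5.94 and 4.87 in WT 3W, 16.8 and 13.1 in WT 1W HFD and 16.4 and 10.8 in WT 12W HFD, with the lowest 1-week value above the highest of the 3-week libraries.

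The largest rises at 1 week were of genes at low RNA in WT 3W. Cldn5, a tight junction protein of endothelium (chr16:18775870-18779220), had 0, 0.7 and 7.65 TPM in WT 3W and 64.9, 21.4, 161 and 38.5 at 1 week, a change of 4.79 ± 0.80 SE, adjusted p = 4.6e-04 in limma, with no overlap. The fold at its start was 17.98 and 12.98 in KO 3W, 20.5, 8.90 and 5.95 in WT 3W, 17.9 and 12.8 in WT 1W HFD and 21.6 and 10.8 in WT 12W HFD, with overlapping groups. H2-Eb1, a chain of MHC class II (chr17:34304263-34306822), went from 0.14, 8.42 and 17.7 to 70.2, 74.6, 92.5 and 87.6 TPM (3.54 ± 0.64 SE, adjusted p = 9.0e-04, limma), and Ptgs1, which encodes cyclooxygenase 1, from 2.29, 7.8 and 17.1 to 46.4, 46.3, 61.4 and 76.7 (2.84 ± 0.46 SE, adjusted p = 3.3e-04). Col6a5, a collagen gene (3.31 ± 0.53 SE, adjusted p = 3.3e-04), and Ushbp1 (2.99 ± 0.53 SE, adjusted p = 8.0e-04) completed the 5 largest. Markers of other cells moved at the same time: the summed TPM of 17 endothelial genes was 90.7 to 172 in WT 3W and 265 to 659 at 1 week (8 of 17 rose), and that of 20 macrophage genes 75.3 to 367 and 890 to 1275 (15 of 20 rose). No gene of either list was at 0 in every library of a group, and the part of these cells in the result was not tested.

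The genes with the largest falls at 1 week included smooth muscle and neural names. Syndig1, first described at synapses (chr2:149829657-149832369), had 28.9, 66.05 and 118 TPM in WT 3W and 4.54, 8.27, 1.55 and 1.95 at 1 week (-3.83 ± 0.60 SE, adjusted p = 2.5e-04, limma), without overlap. The fold of its start was 23.7 and 12.02 in KO 3W, 25.2, 11.3 and 16.8 in WT 3W, 6.52 and 5.25 in WT 1W HFD and 2.95 and 6.79 in WT 12W HFD, so that all 4 HFD libraries were below the 5 others. Cnn1, a calponin of smooth muscle, had 4.87, 58.5 and 345 TPM and 14.5, 16.5, 0 and 1.65 (-3.56 ± 0.95 SE, adjusted p = 0.019, limma). Its adjusted p was 0.12 without WT 1W HFD replicate 3, 0.079 without replicate 4 and 0.094 in a fit of the 2 groups alone. 6330403K07Rik (-3.32 ± 0.57 SE, adjusted p = 5.8e-04), Brinp3 (-3.18 ± 0.49 SE, adjusted p = 2.2e-04) and Gm973 (-3.10 ± 0.79 SE, adjusted p = 0.013) also fell, and Gm973 had an adjusted p of 0.055 without replicate 3 and 0.08 in the fit of 2 groups. The 12 pericyte and smooth muscle markers summed to 124 to 3110 TPM in WT 3W, a wide range, and 82.3 to 257 at 1 week, with 3 of 12 lower. Their part in the fall of Cnn1, itself one of the 12, was not tested.

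After 12 weeks of diet 345 of the 7291 genes were higher than in WT 3W (4.73%, against 7.94% of all genes tested) and 418 lower (5.73% against 6.23%). Of the 1538 tested genes whose listed start lay in neither a member nor a wide region 360 were higher (23.4%) and 83 lower (5.40%), and of the 2587 in wide regions 184 (7.11%) and 236 (9.12%). These 1538 are only 24.2% of the 6365 genes of that kind, whereas 92.9% of genes with a start in a member passed the filter on low values. A gene near 0 TPM in WT 3W could pass it through its 12-week values alone. The part of the filter in the 23.4% was not tested, so it cannot be compared directly with the 4.73%. The summed macrophage markers were 75.3 to 367 TPM in WT 3W and 4966 to 15425 at 12 weeks, with 20 of 20 higher, and 14 of 16 tested lymphocyte markers were higher. None of the macrophage genes with a listed start has it in a member. The part of these cells in either count was not tested.

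**Figure D5:**
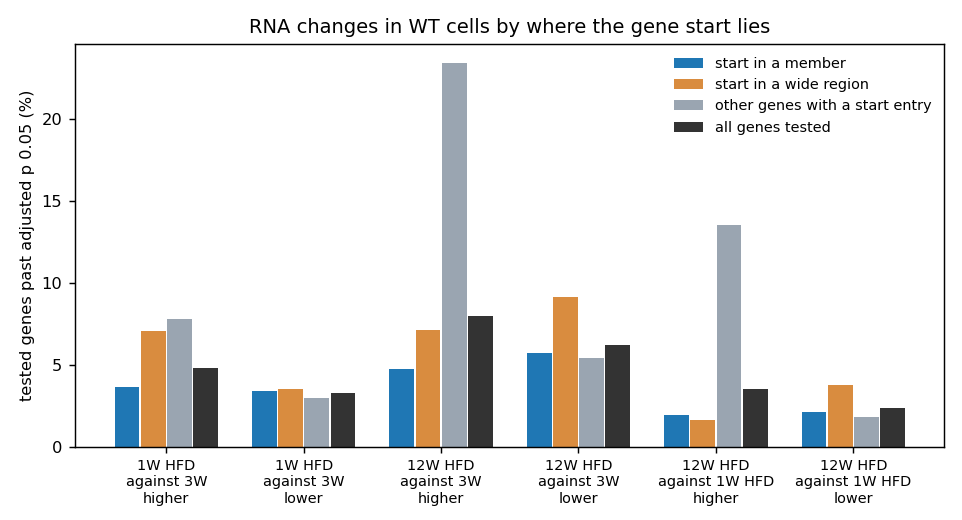
Share of tested genes past an adjusted p of 0.05 in limma (y axis, percent) in 3 comparisons of WT cells, higher and lower, for genes that start in a member (blue, 7291 tested), in a wide region (orange, 2587), elsewhere (grey, 1538) and for all 15659 genes tested (black). Genes that start elsewhere stand at 23.4% higher at 12 weeks against 3 weeks, and genes that start in members at 4.73%. Only 24.2% of the former but 92.9% of the latter passed the filter on low values, so these shares cannot be compared directly.

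The largest rises at 12 weeks among the members included immune genes. Lgals3, which encodes galectin-3 (chr14:47372975-47377795), had 3.18, 11.4 and 24.5 TPM in WT 3W and 1338, 349, 1010.3, 1396 and 616 at 12 weeks (6.29 ± 0.36 SE, adjusted p = 7.6e-13, limma). All 5 were above all 7. The fold of its start was 31.9 and 11.5 in KO 3W, 28.9, 14.2 and 12.4 in WT 3W, 38.2 and 36.5 in WT 1W HFD and 52.4 and 35.8 in WT 12W HFD, higher in the 4 HFD libraries than in the 5 others. Lcp1, the actin bundler of leukocytes (chr14:75130504-75131842), went from 0, 0.46 and 2.88 to 139, 83.3, 136, 235 and 60.2 TPM (6.16 ± 0.40 SE, adjusted p = 6.2e-12, limma), while the fold of its member was low throughout (8.99 and 6.25 in KO 3W, 12.4, 4.15 and 8.66 in WT 3W, 7.45 and 5.55 in WT 1W HFD and 6.56 and 4.92 in WT 12W HFD), with the 12-week values inside the range of WT 3W. H2-Eb1 reached 254, 778, 669, 335 and 183 TPM (5.76 ± 0.60 SE, adjusted p = 3.3e-08, limma), with a fold of 8.99 and 11.5 in KO 3W, 10.1, 16.6 and 10.3 in WT 3W, 13.97 and 10.5 in WT 1W HFD and 10.5 and 25.3 in WT 12W HFD. Cyp4b1, a cytochrome P450 gene (4.82 ± 0.69 SE, adjusted p = 7.1e-06), and Ltc4s, the leukotriene C4 synthase gene (4.24 ± 0.48 SE, adjusted p = 1.6e-07), were also among the 5. The rise in macrophage markers given above goes with all of these, and its part in them was not tested.

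Several genes at high RNA in WT 3W fell at 12 weeks. The summed TPM of the 16 stromal progenitor markers was 35222 to 67563 in WT 3W and 41318 to 57046 at 12 weeks, with 5 of 16 lower and 1 higher. Rbp4, the retinol carrier of plasma (chr19:38122832-38125657), had 302, 868 and 981 TPM in WT 3W and 42.9, 10.7, 13.8, 37.2 and 69 at 12 weeks (-4.48 ± 0.48 SE, adjusted p = 5.7e-08, limma). The fold at its start was 40.6 and 25.5 in KO 3W, 45.7, 24.9 and 27.6 in WT 3W, 36.8 and 21.6 in WT 1W HFD and 16.7 and 11.7 in WT 12W HFD, with both 12-week libraries below the 7 others. Nrk, a kinase gene on chromosome X, went from 15.4, 24.5 and 59.9 to 1.69, 0.34, 0.17, 0 and 0.14 TPM (-4.49 ± 0.40 SE, adjusted p = 1.6e-09, limma), with 13.1 and 12.02 in KO 3W, 25.9, 14.8 and 14.1 in WT 3W, 13.04 and 7.01 in WT 1W HFD and 5.57 and 3.05 in WT 12W HFD at its start. Mapk13, a p38 kinase gene, fell by 4.35 ± 0.47 SE, adjusted p = 6.7e-08 on the log2 scale in limma, and Cnn1 and Syndig1 were also among the 5 largest falls (-5.22 ± 0.89 SE, adjusted p = 8.4e-05 and -4.68 ± 0.56 SE, adjusted p = 3.5e-07). Fmo2, a flavin monooxygenase gene of the committed preadipocyte list, went from 164, 490.2 and 548 to 19.9, 56.8, 48.4, 132 and 70.2 TPM (-2.82 ± 0.37 SE, adjusted p = 1.5e-06, limma). Of the adipogenic factors in members Zfp467 fell (-1.37 ± 0.41 SE, adjusted p = 0.022), and Pparg (0.45 ± 0.41 SE, adjusted p = 0.55) and Stat5b (-0.25 ± 0.32 SE, adjusted p = 0.68) did not pass the test. At the Pparg start the fold was higher in all 4 HFD libraries, as given above, while its RNA was 64.98, 38.4, 46.4 and 20.6 TPM at 1 week and 47.8, 21.9, 33.2, 55.4 and 46.6 at 12 weeks, inside the WT 3W range of 10.5 to 80.5.

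The machinery lists differed at 12 weeks. Proteasome genes had 4 of 23 higher and 0 lower with a median log2 change of 0.18, and cytosolic ribosomal genes 5 of 18 lower and 0 higher with -0.42, beside 7.94% higher and 6.23% lower over all genes tested. The mitochondrial ribosomal genes had 0 of 28 in either direction with -0.13. DNA repair had 1 of 21 lower, translation factors 1 of 15 lower, and RNA polymerase II with the general factors 0 of 22 in either direction. Over all genes tested the median log2 change was -0.04. Of the pericyte and smooth muscle genes in members 4 of 6 fell (Acta2, Cnn1, Kcnj8 and Lmod1), Kcnj8, a potassium channel subunit of pericytes, by 2.15 ± 0.49 SE, adjusted p = 0.0024 on the log2 scale in limma.

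Between 12 weeks and 1 week 139 genes with a start in a member were higher (1.91%, against 3.54% of all genes tested) and 156 lower (2.14% against 2.39%). Without WT 1W HFD replicate 1 there were 86 higher, without WT 1W HFD replicate 4 91 and without WT 12W HFD replicate 1 92. The lower count was 95 without WT 12W HFD replicate 1, 99 without WT 1W HFD replicate 2 and 102 without WT 12W HFD replicate 3. The 5 largest rises were of Syngr1, Lgals3, Rnf128, Cd72 and Lcp1. Rnf128, an E3 ubiquitin ligase gene on chromosome X, had 0, 0, 1.97 and 0.46 TPM at 1 week and 63.4, 4.06, 17.8, 53.2 and 13.96 at 12 weeks (3.92 ± 0.55 SE, adjusted p = 1.8e-05, limma), with a fold of 17.98 and 13.5 in KO 3W, 19.5, 9.50 and 12.99 in WT 3W, 14.4 and 13.7 in WT 1W HFD and 20.3 and 11.5 in WT 12W HFD at its start. Cd72, a coreceptor of B cells and some macrophages, had 6.93, 0.34, 3.77 and 1.79 and 76.9, 31.1, 42.1, 117 and 17.5 TPM (3.78 ± 0.68 SE, adjusted p = 4.3e-04, limma). At both starts the 1-week and 12-week libraries overlapped in fold.

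The 5 largest falls in that comparison were of Smtnl2, Nt5e, Col4a4, Pgf and Tubb4a. Nt5e, the ectonucleotidase CD73 of mesenchymal cells (chr9:88326655-88329705), had 23.7, 10.6, 5.72 and 6.28 TPM at 1 week and 0.03, 0, 0, 0.59 and 0.1 at 12 weeks (-3.27 ± 0.45 SE, adjusted p = 1.3e-05, limma). Col4a4, a basement membrane collagen gene (chr1:82585642-82588771), had 34.3, 21.04, 25.4 and 16.9 and 0.83, 1.81, 2.41, 3.36 and 0.84 (-3.19 ± 0.36 SE, adjusted p = 7.7e-07, limma). Its fold was 35.96 and 26.9 in KO 3W, 38.96, 18.99 and 24.9 in WT 3W, 29.1 and 30.1 in WT 1W HFD and 27.5 and 9.60 in WT 12W HFD, so both 12-week libraries were below both 1-week libraries, 1 of them by under 2 units, and the other was the lowest of 9. Pgf, a growth factor of the VEGF family (-3.005 ± 0.65 SE, adjusted p = 0.0031), Smtnl2 (-3.27 ± 0.51 SE, adjusted p = 8.1e-05) and Tubb4a, a tubulin gene (-2.88 ± 0.49 SE, adjusted p = 2.3e-04), fell as well. Of the Dpp4-type list 2 of 6 fell (Sema3c, -1.48 ± 0.30 SE, adjusted p = 0.0019, and Efhd1, -1.95 ± 0.58 SE, adjusted p = 0.043).

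Fold enrichment at the start went only loosely with the RNA of the gene. At 12 weeks against 3 weeks, pairs of a gene and its member had a median centred log2 difference in fold of -0.23 where the RNA was higher (358 pairs), -0.66 where it was lower (438 pairs) and -0.49 where it did not pass the test (6699 pairs). The difference was above 0 in 34.1% of the pairs with higher RNA and 4.79% of those with lower RNA. At 1 week the medians were -0.18 and -0.52, beside -0.41, and for 12 weeks against 1 week 0.08 and -0.28, beside -0.06. Start members as a whole lay below 0 on this scale, which sets the median over all members to 0, so only the order of these values can be read. Spearman's rho over the 7495 pairs was 0.13 at 1 week, 0.21 at 12 weeks and 0.13 for 12 weeks against 1 week. Genes are not replicates, the pairs share libraries, and no test was made.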

How the data were processed

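ATAC-seq peak lists of 9 libraries and a gene table of 29 RNA-seq libraries from sorted Tcf21 lineage cells were used as deposited. Per the file headers and layout, the authors' lists are narrowPeak files, 1 per library. The authors' peak caller gave each peak a fold enrichment, which is a ratio to the caller's own background. It gave, per the file headers and as deposited by the authors, −log10 p and −log10 q values for each peak against that background. The authors' lists also hold a score that the peak caller wrote for each peak, which was not used. The authors' gene table gives TPM, an abundance per transcript length scaled within each library, with column sums of 918008 to 969385, so read depth is unknown for both assays. Per the submitters' processing notes, Trim Galore 0.6, FastQC, STAR 2.5.3a, RSEM, Bowtie2 2.3, MACS2 and the mm10 build were used, with no roles given. Each list belongs to 1 library.

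Peaks that shared at least 1 bp were merged over the 9 lists, and regions with a peak in all 9 and a width under 5000 bp were kept. Members and gene lists were chosen with earlier results of these data known. Gene starts came from the RefSeq promoter table (GRCm38.p6), with 32851 starts of 27025 genes, of which 16921 matched the 25746 symbols of the TPM table, and gene bodies came from the coordinates in the TPM table. The table used holds no start on chromosome 18. A gene with several starts was counted under the first kind of region that held one, in the order members, wide regions, regions of fewer libraries. Fold was compared between groups on the log2 scale after subtracting each library's median over the members, and a member counted as different when the libraries of 2 groups did not overlap. RNA was tested with limma 3.58.1 (R 4.3.3) on log2(TPM + 1) over 8 groups, with 21 residual degrees of freedom, for 15659 genes that reached 1 TPM in 2 or more libraries, and Benjamini-Hochberg adjustment over all of them. A fold change on this scale understates changes of low genes. Everything else used Python 3.11.15 with pandas 2.3.3, numpy 2.4.6 and scipy 1.17.1. The scripts were checked on simulated data.

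The text names the 10 strongest and 5 weakest members, the 3 largest differences per comparison and direction, the 5 largest RNA changes per comparison and direction, the regions next to the width limit, and examples of the gene lists with the highest rank. It also names list genes that passed the RNA test. The alternatives tried were stricter peak thresholds, an overlap and a width rule, other scalings of fold, other pseudocounts and filters, leaving out each library, a replicate block and a fit of the compared groups alone.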

Additional observations from a re-analysis of the deposited data

Results flagged for a closer look

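In 10 of 59 sets of values checked, 1 library stood apart from the others of its group by Dixon's criterion, which marks about 5% of groups by chance. In WT 3W these were Cldn5 with 7.65 TPM in replicate 4 (0 to 2.85 in the others), Col6a5 with 43.9 TPM in replicate 3 (2.12 to 8.77) and Cyp4b1 with 37.4 TPM in replicate 2 (0.05 to 7.5). In WT 1W HFD they were Ushbp1 with 26.1 TPM in replicate 3 (3.98 to 5.93), Syngr1 with 0.78 TPM in replicate 3 (0 to 0.13) and Brinp3 with 7.32 TPM in replicate 2 (0 to 0.31). In WT 12W HFD they were Syndig1 with 12.5 TPM (0 to 3.01) and Nrk with 1.69 TPM (0 to 0.34), both in replicate 1, and Nt5e with 0.59 TPM in replicate 4 (0 to 0.1). The median TPM of genes with a start in a member was 9.38 in KO 3W replicate 4 and 10.6 to 11.1 in the other 4 KO 3W libraries. None of the 9 genes lost its call when the library that stood apart was left out.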

How the results depend on the processing

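The number of members was 10040 when every library had to cover at least 50% of the region and 19150 with a width limit of 3000 bp, and 29973 to 32838 when 1 library was left out. The share with a gene start was 34.9% for peaks with a −log10 q of at least 5, 48.4% with 50% cover, 27.6% at 4000 bp, 23.5% at 3000 bp, 30.3% with starts within 1000 bp and 31.3% with either gene end, an alternative chosen after seeing the data. It was 26.98 to 29.1% with 1 library left out.

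Members lower in KO numbered 253 with the fold as deposited and 3007 by ranks. At 1 week 6306 were higher and 1648 lower as deposited, with 6309 lower by ranks, and at 12 weeks 1928 were lower as deposited and 6910 by ranks.

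At 1 week 156 and 137 start genes were higher and lower in RNA when limma was fitted to those groups alone. With 1 library left out the counts were 118 to 337 higher and 126 to 322 lower at 1 week, 267 to 382 and 323 to 468 at 12 weeks, and 86 to 142 and 95 to 185 for 12 weeks against 1 week. For KO against WT they stayed at 0 in limma in every fit.

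With the replicate number as a block, the counts were 0 and 0 at 1 week, 190 and 224 at 12 weeks, and 31 and 25 for 12 weeks against 1 week. KO against WT was blocked by the pairs named in the 3-week titles and gave 0 and 0. Deviations from the group means of the 6 KO and WT combinations within a pair had correlations of -0.13 to 0.48, 5 of 6 over 0.1, and each of 5 KO libraries correlated best with its own pair. Most libraries of a pair thus resembled each other. The unpaired fit was kept because the titles do not say what a pair shares, so its SE and unadjusted counts leave the pairs out. In the other comparisons 0 of 4, 1 of 5 and 0 of 5 libraries correlated best with the same number. Of 500 alternatives for the 30 named gene results 482 kept the call and 18 did not pass the threshold, 13 of them under the block. With unknown depth, low TPM values and folds near 3 carry errors that cannot be given.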
